A study of Mus musculus with 4 samples.

Results

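The ATF4 integrated stress response genes were a list of 10 genes given by symbol, Atf4, Ddit3, Atf3, Atf5, Trib3, Asns, Chac1, Sesn2, Ddit4 and Cebpb, of 50600 genes counted in each library. The rule used no expression value, and all 10 were found by their Ensembl identifier. They were measured by bulk RNA sequencing in 4 libraries of primary T cells from C57BL/6NJ mice, labelled as biological replicates 1 to 4 of a single cell type. The labels named no treatment or second group, gave sex as not collected and age as unknown, and gave all 4 libraries the same donor identifier. The file headers called every sample activated bulk cells at 72 h with a name beginning mmTh0, so there was no resting or unstressed sample with which to compare. All values therefore describe 1 state, and spread is that between libraries.

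The integrated stress response joins several alarms to a single output. Kinases that sense amino-acid shortage, misfolded protein in the endoplasmic reticulum, double-stranded RNA or haem and mitochondrial stress phosphorylate the alpha subunit of the translation factor eIF2, which slows most protein synthesis and raises translation of Atf4 mRNA past its short upstream reading frames. ATF4, a bZIP transcription factor, then drives genes of amino-acid supply, redox balance, feedback and, under lasting stress, cell death. Since ATF4, ATF5 and CHOP are controlled in large part at translation, mRNA levels do not give the amount of these proteins. In activated T cells ATF4 is known for supplying amino-acid transport and one-carbon metabolism during growth.

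The libraries held 58522696, 53569919, 49613182 and 94222415 counted fragments for replicates 1 to 4. The 6 T-cell markers were all detected, with a summed level of 6195 to 6497 TPM, where TPM is the count divided by exonic length and scaled to the same sum in every library. Among markers of other cells, 2 of 7 macrophage and monocyte genes were detected (Cd68 at 10.5 ± 0.880 TPM and Adgre1, which encodes F4/80, at 3.21 ± 0.525 TPM, SD, n = 4; summed level 12.8 to 15.4 TPM), while Lyz2 and Itgam had 1 count each over all libraries, Fcgr1 had 4 and Csf1r had 8. Cd14 stood at 0.114, 0.551, 0.822 and 1.05 TPM in replicates 1 to 4. None of 4 B-cell, 4 dendritic-cell or 3 neutrophil markers was detected, and neither was Cd8a, at 0.190 ± 0.0957 TPM (SD, n = 4). One of 3 natural killer markers (Eomes), 1 of the 2 CD8 markers (Cd8b1, 12.7 to 18.1 TPM) and 2 of 4 fibroblast and endothelial markers (Pecam1 and Pdgfrb) were detected. In bulk RNA, fewer cells of a type and less RNA per cell cannot be told apart. The libraries also divided by sex-linked transcripts: Ddx3y, on the Y chromosome, stood at 49.0 and 45.8 TPM in replicates 3 and 4, against 0.0344 and 0.0834 TPM in replicates 1 and 2. Xist stood at 0.877 and 0.392 TPM in replicates 3 and 4, against 332 and 150.1 TPM in replicates 1 and 2, although the labels gave 1 donor identifier for all of them.

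ATF4 binds the C/EBP-ATF response element, and the promoters of 4 of the 10 genes held a copy. The element was searched as TGATGNAA on both strands of RefSeq promoter windows of 300 bases on GRCm38.p6, the build named mm10, each running from 250 bases before to 50 after a gene's start. All 10 genes had a window. Of 27025 genes with windows, 4.51% held the element. The 4 windows are shown because they carry that element. Each line gives 100 bases 5′ to 3′ on the gene's own strand, with the element in capitals. Where it lies on the opposite strand, the capitals are its reverse complement.
Atf3 (chr1:191183390-191183489, minus strand): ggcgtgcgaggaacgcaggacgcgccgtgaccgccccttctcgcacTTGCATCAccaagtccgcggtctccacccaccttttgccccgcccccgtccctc
Trib3 (chr2:152344031-152344130, minus strand): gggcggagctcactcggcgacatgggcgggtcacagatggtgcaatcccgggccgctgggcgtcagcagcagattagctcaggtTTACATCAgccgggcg
Asns (chr6:7693210-7693309, minus strand): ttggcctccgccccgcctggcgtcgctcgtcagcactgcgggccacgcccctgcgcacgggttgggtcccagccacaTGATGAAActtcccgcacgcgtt
Chac1 (chr2:119351003-119351102, plus strand): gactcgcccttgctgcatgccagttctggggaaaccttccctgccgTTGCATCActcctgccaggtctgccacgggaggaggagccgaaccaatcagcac

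Counted from the RefSeq start on which the windows are set, the Asns element lay 15 bases, that of Atf3 102 bases and that of Chac1 185 bases upstream, and that of Trib3 began 14 bases downstream. The variable base was C in Atf3 and Chac1, A in Asns and T in Trib3, so under the stricter form TGATGCAA only Atf3 and Chac1 matched, against 1.03% of all genes. The gene models used for counting start elsewhere for 7 of the 10 genes. Only Atf4, Atf5 and Cebpb have the same start in both. The counted models of Chac1, Ddit3, Asns, Sesn2 and Ddit4 begin 13 to 64 bases further upstream and that of Atf3 34706 bases further, so that the promoter of that first Atf3 exon is not in the window, while that of Trib3 begins 28 bases further downstream. From the counted starts, the Chac1 element lies 172 bases upstream, but for Asns and Trib3 the side changes: the Asns element begins 22 bases inside the counted gene and the Trib3 element lies 6 bases upstream of it. The Atf3 element is then also inside the counted gene. No match was found in the windows of Atf4, Ddit3, Atf5, Sesn2, Ddit4 and Cebpb, which says only that these letters are not in these windows. None of the 10 held the CRE palindrome TGACGTCA, which 2.03% of all genes held. A match is a description of the sequence and not of binding.

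The same element stood in 10 of 62 further pathway genes that had windows, 8 of them among 22 further ATF4 targets. Sites of 30 bases on the element's own strand are shown for targets at the extremes of expression in these cells, with the element in capitals.
Slc7a11, first copy (chr3:50443661-50443690, minus strand): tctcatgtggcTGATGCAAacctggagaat
Slc7a11, second copy (chr3:50443642-50443671, plus strand): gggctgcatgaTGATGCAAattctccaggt
Fgf21 (chr7:45615611-45615640, plus strand): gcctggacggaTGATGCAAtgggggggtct
Gars (chr6:55037960-55037989, minus strand): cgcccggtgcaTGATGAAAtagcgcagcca
Gars stood at 368 ± 15.0 TPM (SD, n = 4), while Slc7a11 stood at 0.0388 ± 0.0113 TPM and Fgf21 had 0 counts. As TGATGNAA, the element was thus present both in abundant targets and in targets near or at 0. Gars holds TGATGAAA, while Slc7a11 and Fgf21 hold the stricter TGATGCAA. That stricter form stood in 9 of the 62 further genes, 7 of them among the 22 targets. Of these targets Aars was the most abundant, at 90.5 TPM. Among the 10 genes too, those with the element ranged from 4.45 TPM (Chac1) to 60.4 TPM (Asns), and those without it from 5.31 TPM (Cebpb) to 637 TPM (Atf4).

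All 10 genes were detected, meaning at least 1 TPM in every library, beside 49.4% of all 21764 protein-coding genes. Their median mean level was 22.6 TPM, against 1.21 TPM over all protein-coding genes and 34.8 TPM over the 10754 detected ones. Their means covered a 143-fold range. Atf4, Ddit4 and Sesn2 together made up 90.2% of the summed level.

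**Figure D1:**
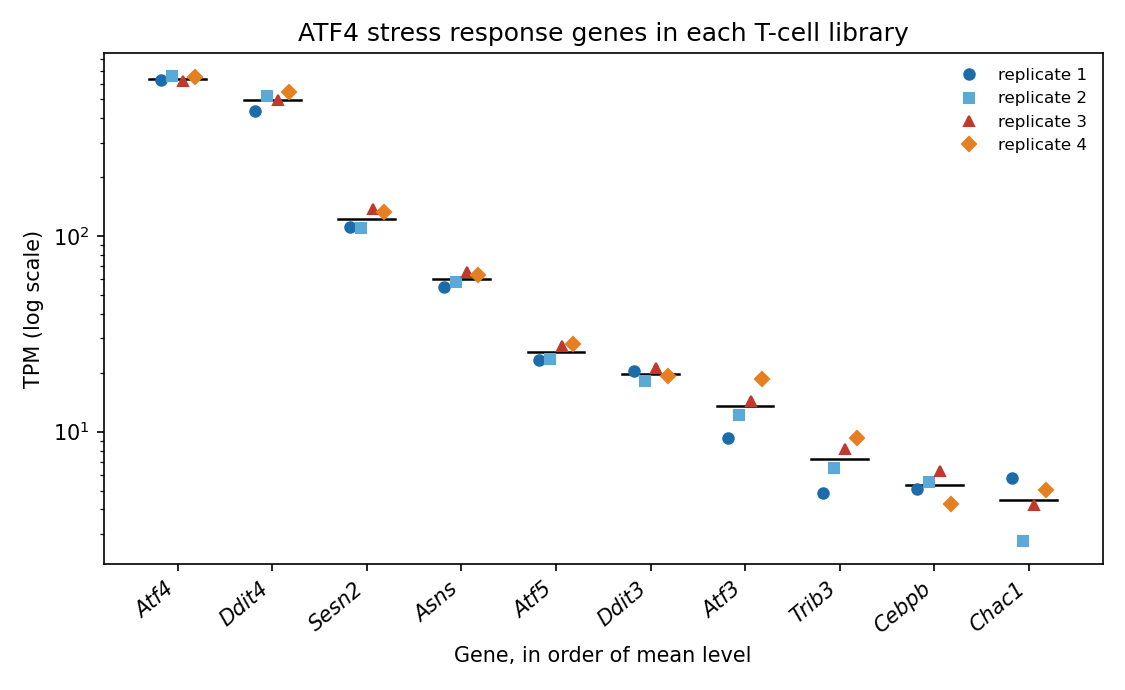
Level of each of the 10 genes in TPM on a log axis, in order of mean level; points are the 4 libraries and bars the mean. Atf4 and Ddit4 lie at 435 to 655 TPM in every library, and Trib3, Cebpb and Chac1 all lie below 10 TPM.

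The transcription factors spanned most of that range. Atf4 (ENSMUSG00000042406, mm10, chromosome 15, 80255184 to 80257540, plus strand), the central factor of the response, measured 624, 655, 616 and 651 TPM over replicates 1 to 4. The libraries lay within 1.06-fold of each other, and the mean of 637 ± 19.0 TPM (SD, n = 4) exceeded that of 99.1% of protein-coding genes. By distance of log2(TPM + 1) over the 4 libraries, the 3 protein-coding genes nearest to Atf4 were Eif1 (655 ± 18.2 TPM, distance 0.0846), Eif3l (647 ± 8.74 TPM, distance 0.0860) and Pdia3 (634 ± 8.32 TPM, distance 0.0875), a likeness of level alone.

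Atf5 (ENSMUSG00000038539, chromosome 7, 44812256 to 44816658, minus strand), a close relative of ATF4 linked to mitochondrial stress, stood at 23.3, 23.5, 27.4 and 27.9 TPM in replicates 1 to 4. Replicates 3 and 4 were both above replicates 1 and 2. Set against Atf4 within each library, it was lower by a log2(TPM + 1) difference, Atf4 minus Atf5, of 4.59 ± 0.15 (SD, n = 4; 4 of 4 libraries), or by a ratio of mean TPM of 24.9.

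Ddit3 (ENSMUSG00000025408, chromosome 10, 127290774 to 127296288, plus strand) encodes CHOP, the factor that turns lasting stress towards cell death. It stood at 20.4, 18.1, 21.3 and 19.2 TPM, with no library apart from the rest. It lay 4.94 ± 0.14 below Atf4 on the same log2 scale in 4 of 4 libraries, a ratio of 32.3 in mean TPM. Its exons share 68 bases with Mars and 13 with Gm4189, both on the opposite strand, and the files were counted by strand.

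Atf3 (ENSMUSG00000026628, chromosome 1, 191170296 to 191218039, minus strand), an early stress factor that is also induced by other signals, measured 9.32, 12.2, 14.4 and 18.5 TPM over replicates 1 to 4. Replicate 4, the most deeply sequenced, was 1.98 times replicate 1, and their 95% Poisson intervals for counting error, 17.4 to 19.6 and 8.36 to 10.4 TPM, did not overlap. Atf4 exceeded it by 5.49 ± 0.37 on the log2 scale in 4 of 4 libraries.

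Cebpb (ENSMUSG00000056501, chromosome 2, 167688915 to 167690418, plus strand), a bZIP partner of both ATF4 and CHOP, stood at 5.11, 5.56, 6.30 and 4.26 TPM from 129 to 178 counts. Counting error alone gives a coefficient of variation of 8.42%, beside the 16.1% measured. Cebpb is also a gene of macrophages, of whose markers Cd68 stood above the 5.31 TPM mean of Cebpb, Adgre1 below it and the other 5 at or below 1.05 TPM in every library; their part in the level of Cebpb was not tested. Its exon shares 312 bases with Tmem189 on the opposite strand. The difference of Cebpb minus Ddit3 was -1.72 ± 0.18 in log2 units, negative in 4 of 4 libraries. Its relative Cebpg, a common partner of ATF4, lay 2.28 ± 0.18 above Cebpb (29.4 ± 0.748 TPM).

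Among the effectors, the inhibitors of the growth kinase mTORC1 were most abundant. Ddit4 (ENSMUSG00000020108, chromosome 10, 59949669 to 59951834, minus strand), which encodes REDD1, stood at 435, 517, 494 and 545 TPM in replicates 1 to 4, with replicate 1 lowest. Its mean of 498 ± 46.6 TPM exceeded that of 98.8% of protein-coding genes. Sesn2 (ENSMUSG00000028893, chromosome 4, 132492032 to 132510501, minus strand), a leucine-binding sestrin and also a p53 target, stood at 111, 110.2, 137 and 132 TPM, with replicates 3 and 4 above replicates 1 and 2. Ddit4 exceeded Sesn2 by 2.01 ± 0.16 on the log2 scale (4 of 4 libraries). By TPM, Sesn2 in turn was the leading sestrin: Sesn1 stood at 34.9 ± 1.48 TPM, and Sesn3 at 33.2 ± 2.93 TPM. Sesn3 minus Sesn2 was -1.85 ± 0.16 in log2 units and negative in 4 of 4 libraries. Before division by exonic length, Sesn3 had more counts than Sesn2 in every library, with 13874 against 12788 in replicate 4. The order of Sesn2 and Sesn3 thus rests on the lengths used. The Ddit4 paralog Ddit4l stood at 3.97 ± 0.640 TPM.

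Asns (ENSMUSG00000029752, chromosome 6, 7675169 to 7693254, minus strand), the asparagine synthetase whose promoter element is shown above, stood at 54.7, 58.1, 65.4 and 63.2 TPM, again with replicates 3 and 4 above replicates 1 and 2. It exceeded Trib3 by 2.93 ± 0.25 and Chac1 by 3.52 ± 0.40 in log2 units, in 4 of 4 libraries each.

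Trib3 (ENSMUSG00000032715, chromosome 2, 152337422 to 152344032, minus strand), a pseudokinase that dampens ATF4 and CHOP, stood at 4.88, 6.53, 8.14 and 9.32 TPM. Replicate 4 was 1.91 times replicate 1. Its paralogs Trib1 and Trib2 stood at 53.4 ± 6.22 and 7.49 ± 1.24 TPM. Chac1 (ENSMUSG00000027313, chromosome 2, 119351229 to 119354381, plus strand), which degrades glutathione and is among the most stress-dependent ATF4 targets, stood at 5.79, 2.76, 4.21 and 5.04 TPM, from 73 counts in replicate 2 and 96 to 229 in the others. Replicate 1 was 2.10 times replicate 2, and their 95% Poisson intervals, 4.92 to 6.76 and 2.16 to 3.47 TPM, did not overlap. Its paralog Chac2, which does the same reaction more slowly, was higher, at 18.9 ± 2.08 TPM.

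In the order of means, Atf4, Ddit4, Sesn2, Asns and Atf5 each lay above the next gene, down to Ddit3, with no overlap of the libraries' ranges. Atf3 lay above Trib3 without overlap too, but barely, with its lowest library at 9.325 TPM and the highest of Trib3 at 9.316. The ranges overlapped between Ddit3 and Atf3, between Trib3 and Cebpb and between Cebpb and Chac1. Ddit3 was above Atf3 in 4 of 4 libraries, Trib3 above Cebpb in 3 and Cebpb above Chac1 in 2, so the last 3 genes were not ordered beyond their spread. Of 12 gene pairs compared within libraries, 11 had a difference of the same sign in all 4. With 16 possible sign patterns, a two-sided exact sign-flip test can give no p below about 0.13. Those 11 pairs reached it (exact test, p adjusted over 12 pairs = 0.136), so no pair could pass a threshold of 0.05. The exception was Trib3 minus Chac1, 0.59 ± 0.54 on the log2 scale and positive in 3 of 4 libraries (exact sign-flip p = 0.25).

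Whether any of the 10 genes differed between libraries by more than genes of like abundance was tested with edgeR over 13681 genes. None of the 10 was called at an adjusted p under 0.05, beside 0.687% of all genes. At an unadjusted p under 0.05 there were 2, Atf3 and Trib3, beside 7.01% of all genes. For Atf3 the coefficient of variation was 28.4%, against a trend of 12.6% for genes of its abundance beyond counting error (edgeR adjusted p = 0.138). For Trib3 it was 26.8% against 16.1% (edgeR adjusted p = 0.678). With 1 common dispersion in place of the trend both were called (edgeR adjusted p = 0.0129 and 0.0421), beside 4.51% of all genes. Chac1 had the widest relative spread, 29.2%, but also a trend of 21.5% and a counting error of 9.32% (edgeR adjusted p = 1.00). At the other end, Atf4 varied by 2.99% and Ddit3 by 6.87%. The median coefficient of variation of the 10 was 10.5%, against 7.94% over detected protein-coding genes.

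**Figure D2:**
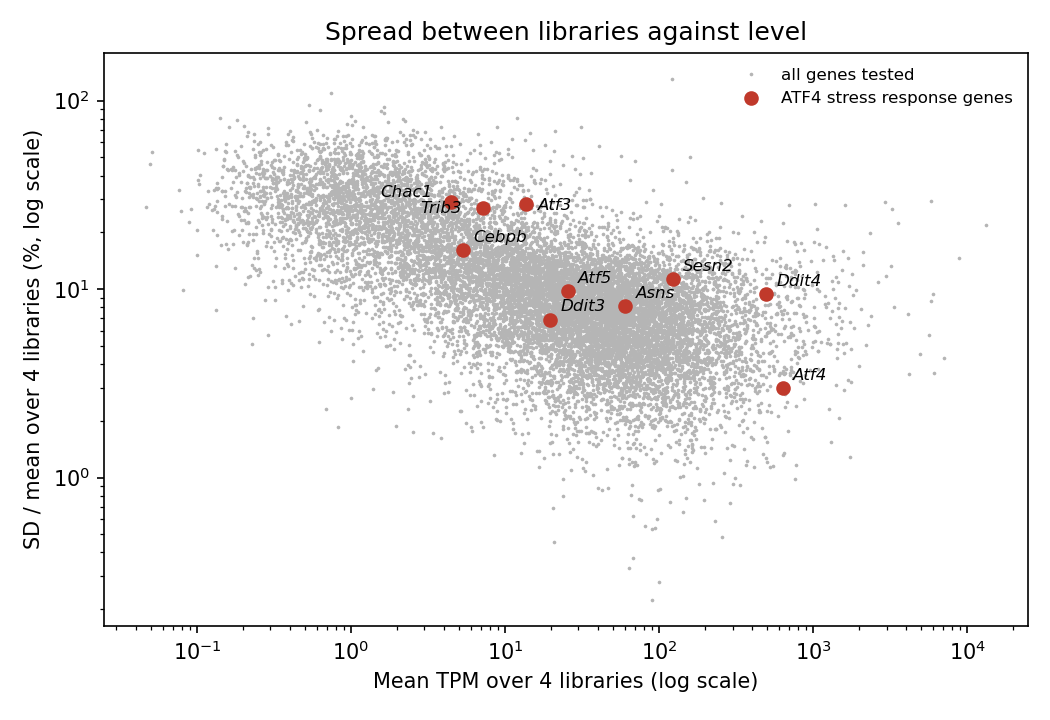
SD divided by mean over the 4 libraries, in percent, against mean TPM, both on log axes; grey points are all genes tested for spread and red points the 10 genes. Atf3 (28.4%), Trib3 (26.8%) and Chac1 (29.2%) vary most, and Atf4 (2.99%) least.

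Levels of several of the 10 genes divided the libraries in the same way as Ddx3y and Xist. In 5 of the 10 genes (Atf3, Trib3, Sesn2, Atf5 and Asns), replicates 3 and 4 were both above replicates 1 and 2, beside 19.6% of detected protein-coding genes. In 0 of the 10 were both below, beside 11.2%. Mean levels in replicates 3 and 4 and in replicates 1 and 2 were 16.4 and 10.8 TPM for Atf3 (1.53-fold), 8.73 and 5.70 TPM for Trib3 (1.53-fold), and 135 and 111 TPM for Sesn2 (1.21-fold). The ratios were 1.18 for Atf5 and 1.14 for Asns. Atf4 itself did not divide that way, at 634 and 640 TPM (ratio 0.991). Some cell markers divided the libraries in the same way. The 19.6% covers detected genes only, so it is a like share for the detected markers and not for the others. Replicates 3 and 4 were both above replicates 1 and 2 in 1 of 7 macrophage and monocyte markers (Cd14) and 2 of 3 natural killer markers (Eomes and Klrb1c). They were also above in 1 of 2 CD8 markers (Cd8b1), 1 of 4 dendritic-cell markers (Xcr1), 2 of 4 fibroblast and endothelial markers (Col1a1 and Pecam1) and 3 of 6 T-cell markers. None of the 4 B-cell or 3 neutrophil markers was above, and the T-cell marker Cd3g was below. Cd14, Klrb1c, Xcr1 and Col1a1 did not reach detection, and Klrb1c stood at 0.272 and 0.280 TPM in replicates 2 and 4. Summed levels of the natural killer markers were 5.17 and 4.18 TPM in replicates 3 and 4, against 3.06 and 2.66 TPM in replicates 1 and 2, and those of the macrophage and monocyte markers were 14.3 and 15.1 TPM, against 15.4 and 12.8 TPM. Their part in the levels of the 5 genes was not tested. With 2 libraries on each side, the sex-linked difference cannot be told apart from any other that divides the libraries in the same way, and no test was made.

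**Figure D3:**
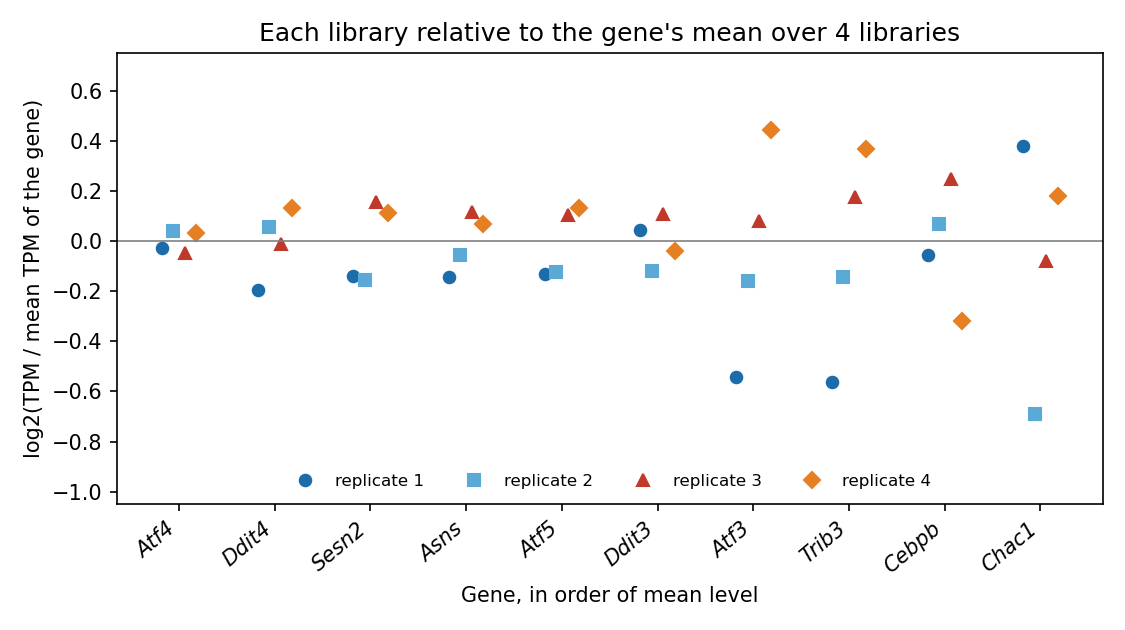
Each library's TPM relative to the gene's mean, on a log2 scale, for the 10 genes in order of mean level; symbols mark replicates 1 to 4. For Sesn2, Asns, Atf5, Atf3 and Trib3 the triangles and diamonds (replicates 3 and 4) lie above the circles and squares (replicates 1 and 2); for Atf4 all 4 lie close to 0.

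The wider pathway was described with 76 further genes in 7 lists. Of these, 69 were detected, beside 49.4% of all protein-coding genes. edgeR tested 71 of them and called none variable, beside 0.687% of all genes tested. At an unadjusted edgeR p under 0.05 there were 3, beside 7.01% of all genes tested. Upstream, all 4 eIF2 alpha kinases were detected, with Eif2ak1 above the others in every library. Eif2ak1 (HRI, the haem and mitochondrial sensor) stood at 50.1 ± 3.51 TPM, Eif2ak3 (PERK, the endoplasmic reticulum sensor) at 33.6 ± 3.75, Eif2ak4 (GCN2, the amino-acid sensor) at 27.9 ± 2.17 and Eif2ak2 (PKR, the RNA sensor) at 25.2 ± 3.73. Eif2ak4 minus Eif2ak3 was -0.25 ± 0.08 in log2 units, negative in 4 of 4 libraries. Before division by exonic length, Eif2ak4 had more counts than Eif2ak3 in replicates 1 to 3, so this order rests on the lengths used. Gcn1, which activates GCN2, stood at 65.1 ± 8.01 TPM, and Dnajc3, an inhibitor of PERK, at 69.6 ± 3.47.

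All 8 genes of eIF2 alpha, its exchange factor eIF2B and its phosphatase subunits were detected, led by Eif2b5 (163 ± 5.91 TPM), Ppp1r15b (141 ± 10.6) and Eif2b1 (133 ± 3.27). The constitutive phosphatase subunit gene Ppp1r15b exceeded the stress-induced Ppp1r15a, which encodes GADD34, by 2.43 ± 0.18 on the log2 scale in 4 of 4 libraries, with Ppp1r15a at 25.3 ± 2.39 TPM.

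Of 6 bZIP partners 4 were detected. Cebpg, at 29.4 TPM, and the antioxidant factor gene Nfe2l2, at 29.0 ± 1.15, led, and Cebpd stood at 2.23 ± 0.290. Cebpa, at 5 counts in all, and Cebpe were not detected. Cebpe had 23 counts in replicate 1 and 1 to 3 in the others. All 9 paralogs were detected, with Atf1 (82.1 ± 8.17 TPM), Trib1 and Atf2 (43.4 ± 3.45) the highest.

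Further ATF4 targets were not expressed alike. Of 28, 23 were detected. The median over all 28 was 103 TPM, above the 22.6 TPM of the 10 genes. The highest were the tRNA synthetase genes Gars and Nars (341 ± 10.7 TPM) and the serine synthesis gene Phgdh (319.5 ± 28.2). Psat1 of the same pathway stood at 204 ± 8.17 TPM, and the mitochondrial one-carbon enzyme genes Shmt2 and Mthfd2 at 306 ± 19.9 and 155 ± 5.62. The amino-acid transporter genes Slc7a5 (232 ± 19.4), Slc3a2 (140 ± 2.37), Slc38a2 (134 ± 9.81) and Slc7a1 (128 ± 14.0) were abundant too. The 5 not detected were Slc7a11, Vldlr (0.812 to 1.36 TPM), Nupr1 (0.830 to 1.46), Gdf15 (8 counts in all) and Fgf21. Slc7a11 encodes the cystine transporter, and GDF15 and FGF21 are hormones released under stress. The 0 counts of Fgf21 allow up to 0.226 TPM in a library at 3 counts.

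All 12 genes of the endoplasmic reticulum arms were detected, led by the chaperone genes Calr (1084 ± 50.7 TPM), Hspa5 (691 ± 12.2) and Hsp90b1 (616 ± 35.4). Of its sensors, Atf6 stood at 23.8 ± 0.957 TPM and Ern1, which encodes IRE1, at 7.83 ± 1.16. All 7 genes of the mitochondrial list were detected, led by the chaperone genes Hspd1 (1121 ± 58.8 TPM), Hspa9 (812 ± 34.8) and Hspe1 (350 ± 38.7). Dele1 and Oma1, which relay mitochondrial stress to HRI, stood at 74.6 ± 2.28 and 43.8 ± 2.23 TPM.

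**Figure D4:**
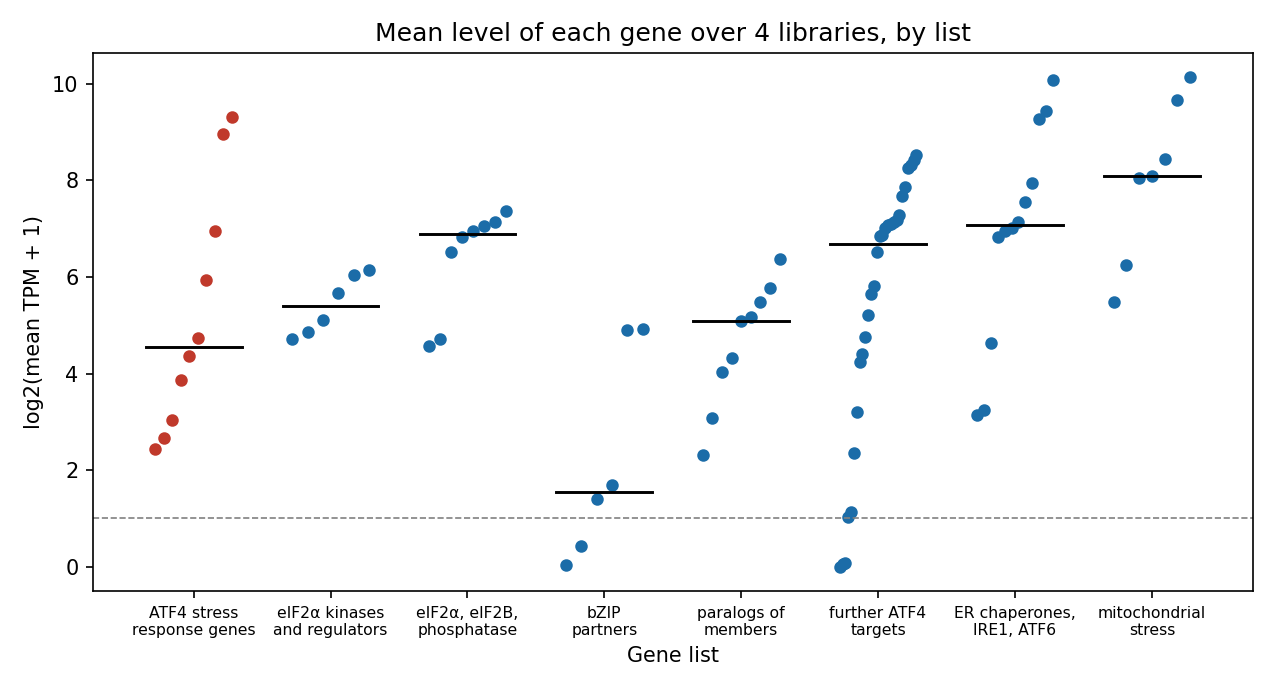
Mean level of every gene over the 4 libraries as log2(mean TPM + 1), by list; red points are the 10 ATF4 stress response genes, blue points the further pathway genes, black bars the medians and the dashed line a mean of 1 TPM. The median of the 10 genes (22.6 TPM) lies below that of the further ATF4 targets (103 TPM), which also hold 3 genes near 0.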

How the data were processed

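RNA from 4 T-cell libraries was measured. The labels call it total RNA, while the library protocol they link to is named for polyadenylated RNA; which was sequenced is not settled here, and TPM of transcripts without a poly(A) tail depends on it. Each library has its own deposited table of unnormalized whole-number counts by gene. These were made by the authors with featureCounts 1.4.6-p4, per the file headers, from read pairs with both ends aligned, over exons of GENCODE mouse release 13 and on the reverse strand; no option for shared or multimapping reads was set. The build is mm10, per the labels; for the aligner's version the entry is "not given in the sources used here". Library totals ran from 49613182 to 94222415.

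Symbols came from GENCODE mouse release 21 by Ensembl identifier (50376 of 50600 matched; Gcn1 by a synonym). TPM used the files' lengths, over all genes, so comparisons between genes depend on those lengths. Intervals are exact Poisson at 95% and cover counting error only, as does the floor of 3 counts. Nothing in the labels ties libraries to separate animals, so p-values measure the spread between libraries. edgeR 4.0.16 under R 4.3.3 used TMM factors, filterByExpr and a trended dispersion, and compared each gene's deviance from an intercept-only fit with a chi-square distribution, with Benjamini-Hochberg adjustment over all genes tested. It was tested on simulated data of 13681 genes: 80% of genes changed 2-fold in 2 of 4 libraries were recovered and 24% of those changed 1.5-fold. Pairs used log2(TPM + 1), which understates differences of low genes. The rest used Python 3.11.15 with scipy 1.17.1, pandas 2.3.3 and numpy 2.4.6, and figures used matplotlib 3.10.9. Promoter windows are RefSeq's. Alternatives were DESeq2 1.42.0 size factors, other count filters, a common dispersion, other TPM thresholds, TPM over protein-coding genes or with TMM factors, a pseudocount of 0.1, the element TGATGCAA and leaving out each replicate.

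The 10 genes, the lists and the pairs were chosen with earlier results of these data known. Named genes are the 10; in each further list its 3 most abundant, the undetected ones and those called variable; both genes of each pair; the 3 nearest to Atf4; and the cell markers. Others were named after their values were seen.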

Additional observations from a re-analysis of the deposited data

Results flagged for a closer look

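Of 85 genes with values, 2 had a single library far from the other 3 by Dixon's criterion for 4 samples, which chance meets in about 5% of groups. Cebpe stood at 1.11 TPM in replicate 1, against 0.0580 to 0.150 TPM in the others. Nupr1 stood at 1.46 TPM in replicate 3, against 0.830 to 0.936 TPM in the others. Both rest on few counts, and neither is among the 10 ATF4 stress response genes.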

How the results depend on the processing

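No paired analysis was possible because the labels give a single group. The count of variable genes, 94, was 617 with a common dispersion and ran from 38 to 87 when each replicate was left out. Of the 10 genes, 2 were called with a common dispersion (Atf3 and Trib3) and none under any other alternative. No further pathway gene was called under any alternative. Leaving out 1 replicate left 0 to 3 of the 10 below an unadjusted edgeR p of 0.05, beside 5.66% to 6.02% of all genes tested. The element TGATGCAA in place of TGATGNAA was held by 2 of the 10 promoters. All 10 genes had at least 10 counts in every library, and 7 reached 5 TPM in every library. They also stayed detected at 0.5 TPM and without each replicate, which follows from having at least 1 TPM in every library. Of 60 recomputed levels, 59 moved by less than the spread between libraries. The other was Atf4 at 673 TPM over protein-coding genes alone, a setting that rescales all genes of a library alike. Leaving out 1 replicate cannot move a mean by as much as that spread, so those recomputations could not have come out otherwise. No pair difference changed sign over 72 recomputations, and 71 moved by less than the spread. Leaving out 1 replicate cannot move a mean difference by that much either, nor change its sign where all libraries share it. Rescaling to protein-coding genes nearly cancels within a library, so most of this stability was fixed in advance. Counts of 73 to 229 limit the precision of Chac1, and of 129 to 178 that of Cebpb.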

Other observations

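Among the further targets, Stc2, a secreted glycoprotein gene, ran against the direction seen in Asns, Sesn2 and Trib3. It stood at 23.0 and 20.96 TPM in replicates 3 and 4, against 30.4 and 29.8 TPM in replicates 1 and 2, and was not called over all genes (edgeR adjusted p = 0.0933). The other further genes at an unadjusted p under 0.05 were Eif4ebp1, which encodes an inhibitor of cap-dependent translation and ran from 48.2 to 65.4 TPM, and Hspe1, which ran from 294 to 377 TPM (edgeR adjusted p = 0.524 and 0.435). Among detected further targets, Psat1, Shmt2, Mthfd2, Aldh18a1, Nars, Aars, Slc1a4, Pycr1 and Slc3a2 had replicates 3 and 4 both above replicates 1 and 2. Besides Stc2, Cth had them both below. Over detected protein-coding genes, 19.6% were above in this way and 11.2% below.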
